A study of Mus musculus with 4 samples.

Results

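The interferon response and antigen presentation genes described here are 41 mouse genes given by name, from the transcription factors that relay an interferon signal to the chains that display peptides on the cell surface. A gene entered through the probe sets annotated with its symbol alone, and the probe set of highest mean over the arrays stood for it. Of the 41 genes, 37 were tested, among 13565 genes in all. Mx1 was below the limit on dim probe sets, Isg15 and Psme2 were represented only by probe sets annotated with several symbols, and Ifi44 had no probe set under its symbol in the annotation used here, so these 4 were not analysed.

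Per the labels, the RNA came from mouse mesangial cells, the contractile cells between the capillaries of the kidney glomerulus. It was measured on 4 oligonucleotide arrays. In 2 of them the cells had received TGFBeta1, transforming growth factor beta 1, a cytokine known for raising matrix production by mesangial cells. The other 2 were labelled as low glucose. The labels give no dose, time, glucose level of the TGFBeta1 cells, strain or origin of the cells, so a difference in glucose cannot be told apart from one in TGFBeta1, and no label says whether a group's 2 arrays hold RNA of different cultures.

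Cells sense viral nucleic acid through receptors such as Ifih1, and the interferons they then secrete act through receptor-bound kinases on STAT and IRF transcription factors. The type I interferons assemble a complex that holds STAT2 and IRF9 and binds interferon-stimulated response elements, while the response to interferon gamma depends in part on IRF1. The induced genes include antiviral effectors (IFIT, MX and GBP proteins), the ISG15 modifier and its enzymes, and the machinery that cuts proteins in the immunoproteasome, carries the peptides through the TAP transporter and loads them on class I molecules. Many cells outside the immune system keep a low level of this programme without infection.

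Promoter windows from RefSeq (GRCm38.p6, 250 bases before to 50 after an annotated start) are shown for genes on which the results turn. The first 2 belong to IFIT genes that lie on the same chromosome, of which Ifit3 passed the test described below and Ifit1 did not, the next to the divergent pair Tap1 and Psmb9, one to their neighbour Psmb8, and the last to Oasl1, one of the genes that rose. In the windows of Ifit3, Ifit1 and Psmb8, capitals mark the letters GAAANNGAA (the core of an interferon-stimulated response element) or TTCNNNGAA (a STAT site) on either strand, and the Oasl1 window holds neither. In the Tap1 window, capitals mark the stretch from the start of Psmb9, which is read in the opposite direction, to the start of Tap1.
Ifit3 (chr19:34583279-34583578, + strand): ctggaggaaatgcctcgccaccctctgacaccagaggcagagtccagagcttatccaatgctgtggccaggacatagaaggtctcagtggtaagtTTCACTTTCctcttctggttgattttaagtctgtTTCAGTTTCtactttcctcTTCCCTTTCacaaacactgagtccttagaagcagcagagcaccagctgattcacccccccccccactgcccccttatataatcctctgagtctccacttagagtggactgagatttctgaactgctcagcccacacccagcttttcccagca
Ifit1 (chr19:34640639-34640938, + strand): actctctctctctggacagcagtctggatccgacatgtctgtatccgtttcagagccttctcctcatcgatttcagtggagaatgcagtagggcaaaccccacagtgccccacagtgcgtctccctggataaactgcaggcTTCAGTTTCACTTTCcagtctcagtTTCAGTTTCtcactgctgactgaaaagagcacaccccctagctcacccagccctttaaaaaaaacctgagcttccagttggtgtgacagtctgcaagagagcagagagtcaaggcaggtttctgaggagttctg
Tap1 (chr17:34187306-34187605, + strand): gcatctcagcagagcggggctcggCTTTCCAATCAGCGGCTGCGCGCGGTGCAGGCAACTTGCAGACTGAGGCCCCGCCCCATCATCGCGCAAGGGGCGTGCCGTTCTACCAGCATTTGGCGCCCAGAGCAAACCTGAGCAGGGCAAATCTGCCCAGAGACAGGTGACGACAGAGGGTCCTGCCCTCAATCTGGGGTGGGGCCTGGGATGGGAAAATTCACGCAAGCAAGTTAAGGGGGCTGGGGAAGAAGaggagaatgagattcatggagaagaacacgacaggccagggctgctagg
Psmb8 (chr17:34197945-34198244, + strand): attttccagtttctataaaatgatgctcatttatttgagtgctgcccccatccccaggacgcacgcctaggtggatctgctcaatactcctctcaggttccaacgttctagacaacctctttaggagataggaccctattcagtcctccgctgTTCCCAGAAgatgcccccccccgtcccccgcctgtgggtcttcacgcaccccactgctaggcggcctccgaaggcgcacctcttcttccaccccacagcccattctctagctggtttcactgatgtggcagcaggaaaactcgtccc
Oasl1 (chr5:114922990-114923289, + strand): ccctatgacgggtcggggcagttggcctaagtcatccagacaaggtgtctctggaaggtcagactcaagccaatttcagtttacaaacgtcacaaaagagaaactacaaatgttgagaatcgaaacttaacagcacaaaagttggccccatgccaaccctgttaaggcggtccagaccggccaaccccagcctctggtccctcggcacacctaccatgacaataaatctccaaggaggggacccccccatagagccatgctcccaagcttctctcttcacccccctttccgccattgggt

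Of the 41 genes, 34 matched a promoter in the RefSeq table, with 42 windows between them. GAAANNGAA was present in 17 of the 34 genes (50%), against 9.76% of all 27025 genes with a promoter and 8.56% of all 32851 windows. TTCNNNGAA was present in 9 of the 34 genes (26.5%), against 9.55% of all genes and 8.3% of all windows. Among tested genes with a promoter, GAAANNGAA was present in 3 of 11 that fell (27.3%), 12 of 19 that did not pass (63.2%) and 0 of 1 that rose. TTCNNNGAA was present in 4 of 11 that fell (36.4%) and 5 of 19 that did not pass (26.3%). In Ifitm3 and Bst2 a match of one motif overlapped a match of the other. The windows of Ifit3 and Ifit1 each held 3 matches of GAAANNGAA and no TTCNNNGAA, the Psmb8 window held 1 TTCNNNGAA, and those of Tap1, Psmb9 and Oasl1 held neither string. A match is a description of the letters and not of a bound site. Only these exact spellings were searched, so a window without a match may hold a variant of either element.

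Most of the 37 tested genes were slightly lower in the TGFBeta1 arrays, and a smaller number passed the test. Of the 37 genes, 14 fell (against 10.6% of all tested genes), led by Ifit3, Psmb9, Tap1, Psmb8, Irf7 and Ifit2, and 2 rose (Oasl1 and Mx2, against 7.88% of all tested genes), while 21 did not pass. Here rose and fell mean a Benjamini-Hochberg adjusted p under 0.05 over all 13565 genes in a two-sided limma fit that held the array pair as a block. The median difference of the 37 genes was -0.16 on the log2 scale, TGFBeta1 minus low glucose, with -0.16 and -0.13 within the array pairs, while over all tested genes the median was -0.000144. A difference below 0 was seen in 34 of the 37 genes (91.9%, against 50.1% of all tested genes), and in 30 genes it was below 0 within both pairs (81.1%, against 34.4%). A fall of at least 0.25 was seen in 9 of the 37 (24.3%, against 5.79%).

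Those calls rest on the array pair. The 4 arrays formed 2 pairs of 1 TGFBeta1 and 1 low glucose array in 18 probe sets of hybridisation spike-ins, control transcripts that hold no RNA of the cells: TGFBeta1 replicate 2 with low glucose replicate 1 (pair 1) and TGFBeta1 replicate 1 with low glucose replicate 2 (pair 2). Fitted without the pair, 0 of the 37 genes and 0 of all 13565 genes (0%) passed with limma, and an unadjusted p under 0.05 was found for 3 of the 37 genes (Ifit3, Psmb8 and Psmb9) and 270 of all genes. With the pair held, 1 residual degree of freedom is left, and each gene's spread is taken from genes of similar brightness. When the weight of that shared spread was set to the weight found in the unpaired fit, limma called 0 genes, with an unadjusted p under 0.05 for 15 of the 37 genes and 2240 of all genes.

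The arrays of the 2 groups did not overlap for 17 of the 37 genes. Both TGFBeta1 arrays were below both low glucose arrays in 14 (11.1% of all tested genes) and above them in 3 (9.81% of all tested genes).

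**Figure D1:**
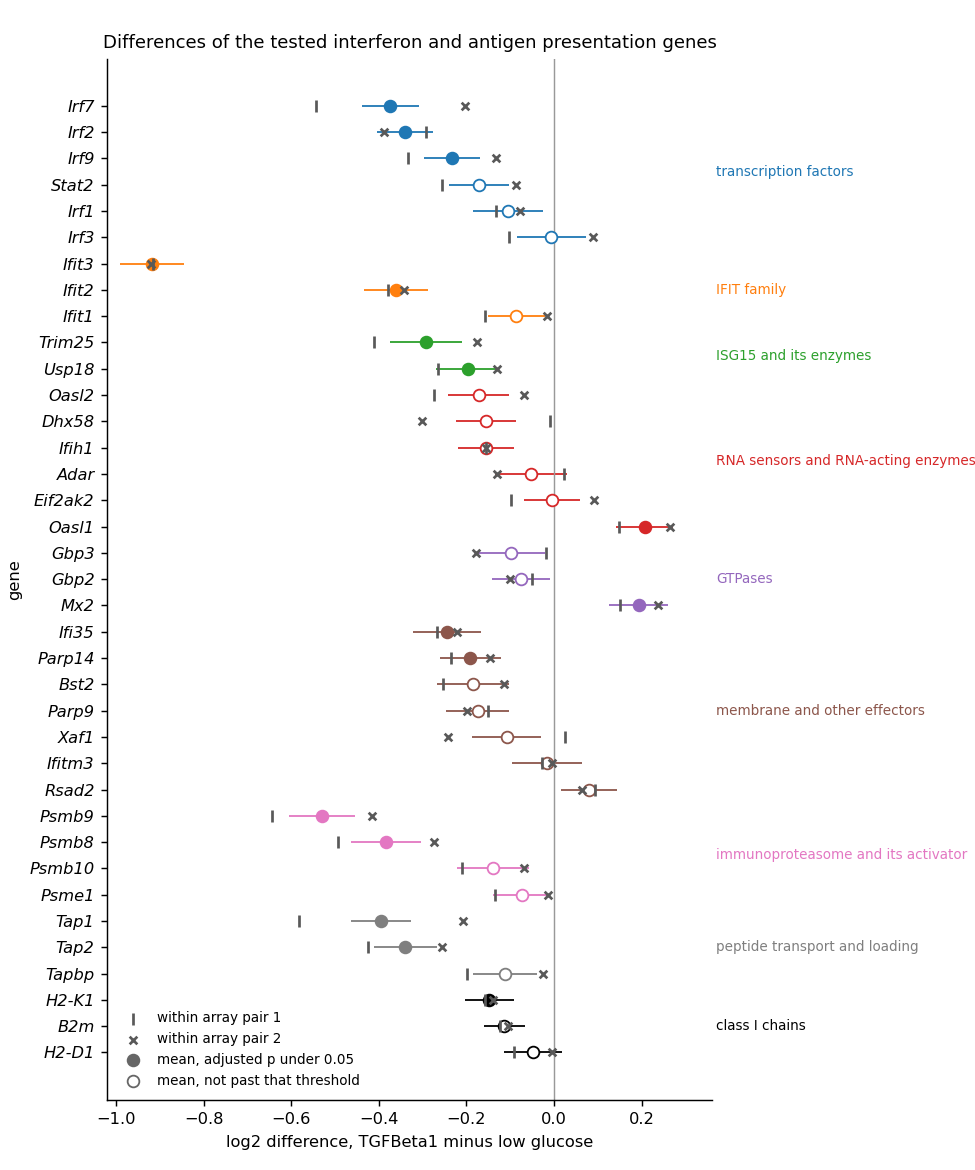
Log2 difference (TGFBeta1 minus low glucose, x axis) of the 37 tested genes, grouped by role, with standard errors of the limma fit as bars. Filled circles passed an adjusted p of 0.05 and open circles did not, while ticks and crosses give the differences within array pair 1 and pair 2. Ifit3 lies at -0.92 and 34 of the 37 genes lie below 0.

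Transcription factors that carry the interferon signal were lower in part: 3 of 6 fell (Irf7, Irf2 and Irf9), 0 rose and 3 did not pass. Irf7, which amplifies the type I interferon response, had normalised log2 intensities of 8.11 and 7.35 in TGFBeta1 replicates 1 and 2, against 7.90 and 8.31 in low glucose replicates 1 and 2. It fell by 0.37 ± 0.064 (standard error with the pair held, n = 2 arrays per group, limma adjusted p = 2.16e-07). Within pairs 1 and 2 it was at -0.54 and -0.20, and without the pair the standard error was 0.32. The groups overlapped, since the array of pair 2 in TGFBeta1 was brighter than that of pair 1 in low glucose. Irf2, which competes with Irf1 at shared sites, had 7.46 and 7.35 in TGFBeta1 and 7.64 and 7.85 in low glucose, and both TGFBeta1 arrays lay below both others. Its fall was 0.34 ± 0.065 (adjusted p = 3.70e-06 with limma). Irf9, the DNA-binding partner of Stat2, had 8.07 and 7.57 in TGFBeta1 arrays against 7.91 and 8.20 in low glucose arrays and fell by 0.23 ± 0.064 (adjusted p = 0.00334 with limma; -0.33 and -0.13 within the pairs). Stat2 itself was at -0.17 ± 0.069, outside the threshold (limma adjusted p = 0.0631), although its arrays did not overlap. Another Stat2 probe set above the limit on dim probe sets was at -0.09, and there the groups overlapped. Irf1, the main factor of the interferon gamma response and in this group the brightest probe set, had 9.04 and 9.20 in TGFBeta1 and 9.34 and 9.12 in low glucose, a difference of -0.10 ± 0.080 that did not pass. Irf3, a factor activated by phosphorylation, was at -0.01 ± 0.079. In fits without the pair that left out TGFBeta1 replicate 2, Irf7 was at 0.00299 and Irf9 at 0.0161. With TGFBeta1 replicate 1 left out they were at -0.75 and -0.48, with low glucose replicate 1 left out at -0.58 and -0.38, and with low glucose replicate 2 left out at -0.17 and -0.08.

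Among the IFIT genes, whose products bind foreign RNA and hold back its translation, Ifit3 and Ifit2 fell and Ifit1 did not pass. Ifit3 had 8.43 and 7.96 in TGFBeta1 replicates 1 and 2, against 8.88 and 9.35 in low glucose replicates 1 and 2. In deposited linear intensities these were 292 and 214 against 431 and 596. Every TGFBeta1 array was below every low glucose array, and the drop was the same size in both pairs. Ifit3 fell by 0.92 ± 0.074 (a ratio of 0.529; limma adjusted p = 4.86e-33), with -0.92 and -0.92 within the pairs, and 12 of the 13565 tested genes had a larger fall. Ifit2, the neighbour of Ifit3 on chromosome 19, had 8.44 and 8.40 in TGFBeta1 against 8.78 and 8.78 in low glucose, with almost no spread inside a group. It fell by 0.36 ± 0.073 (adjusted p = 1.62e-05 with limma; -0.38 and -0.34 within the pairs). Ifit1, whose window printed above holds as many matches as that of Ifit3, had 7.86 and 7.08 in TGFBeta1 arrays and 7.24 and 7.88 in low glucose arrays. Its arrays sorted by pair and not by group, and its difference of -0.09 ± 0.065 did not pass. The difference between Ifit3 and Ifit1 was not tested.

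Both tested genes of the ISG15 system fell. Trim25, a ubiquitin ligase that also attaches ISG15, had 9.76 and 9.59 in TGFBeta1 and 10.004 and 9.93 in low glucose. Its fall was 0.29 ± 0.083 (adjusted p = 0.00401 with limma; -0.41 and -0.18 within the pairs), and its other probe sets were at -0.26 and 0.15, so its probe sets disagreed in sign. Usp18, the protease that removes ISG15 and dampens signalling at the type I receptor, had 8.65 and 8.34 in TGFBeta1 against 8.60 and 8.78 in low glucose, with overlap between the groups. It fell by 0.20 ± 0.073 (limma adjusted p = 0.0387; -0.26 and -0.13 within the pairs), and did not pass when no filter on dim probe sets was used (adjusted p = 0.0626). Without the pair, Usp18 was at -0.35 when TGFBeta1 replicate 1 was left out, -0.04 without TGFBeta1 replicate 2 and -0.11 without low glucose replicate 2.

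Of the 6 RNA sensors and enzymes that act on RNA, 1 rose, 0 fell and 5 did not pass. Oasl1, an oligoadenylate synthetase-like protein known in mouse to restrain translation of Irf7 mRNA, had 8.12 and 8.11 in TGFBeta1 replicates 1 and 2, against 7.96 and 7.85 in low glucose replicates 1 and 2. It rose by 0.21 ± 0.065 (adjusted p = 0.0120 with limma; 0.15 and 0.26 within the pairs), with no overlap between the groups. Oasl2, its neighbour on chromosome 5, was at -0.17 ± 0.070 and did not pass. Ifih1 (the sensor MDA5) was at -0.16 ± 0.064 and Dhx58 (the sensor LGP2) at -0.16 ± 0.068. Dhx58 had another probe set of nearly equal level, which was higher in mean deposited intensity. That probe set gave 7.26 and 6.88 in TGFBeta1 and 7.33 and 7.65 in low glucose, a difference of -0.42 with a limma adjusted p of 2.64e-08 when it stood for the gene, an alternative chosen after the values were seen. The RNA-editing enzyme Adar was the brightest probe set of these 6 genes. It had 8.97 and 9.89 in TGFBeta1 arrays and 9.86 and 9.10 in low glucose arrays, a difference of -0.05 ± 0.082. The kinase Eif2ak2 (PKR), which halts translation on sensing double-stranded RNA, was at -0.00416 ± 0.064 on its brightest probe set (0.0100 with the deposited scaling), and at -0.27 and -0.27 on its other 2.

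Of the 3 tested interferon-induced GTPases, Mx2 rose and both GBP genes did not pass. Mx2, a cytoplasmic GTPase active against some RNA viruses in mouse, had 7.36 and 7.49 in TGFBeta1 against 7.34 and 7.12 in low glucose. Mx2 was dim, with deposited intensities of 81 to 147 beside array medians of 78.3 to 99.6. It rose by 0.19 ± 0.068 (limma adjusted p = 0.0282; 0.15 and 0.24 within the pairs). Its arrays did not overlap, although TGFBeta1 replicate 1 and low glucose replicate 1 were close. Unpaired, its difference was 0.13 with TGFBeta1 replicate 2 left out, 0.30 with low glucose replicate 1 left out and 0.08 with low glucose replicate 2 left out. Gbp2, the brightest of the 3, had 8.61 and 7.62 in TGFBeta1 and 7.67 and 8.71 in low glucose, so that it differed far more between the pairs than between the groups (-0.08 ± 0.066). Gbp3 was at -0.10 ± 0.078.

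Of the 7 remaining effectors 2 fell, 0 rose and 5 did not pass. Ifi35, a partner of the interferon-induced protein Nmi, had 10.62 and 10.14 in TGFBeta1 arrays against 10.41 and 10.84 in low glucose arrays, with overlap. It fell by 0.24 ± 0.078 (adjusted p = 0.0141 with limma; -0.27 and -0.22 within the pairs), and its other probe sets were at -0.12 and -0.23. Parp14, an ADP-ribosyltransferase, had 7.19 and 7.02 in TGFBeta1 and 7.25 and 7.34 in low glucose. It fell by 0.19 ± 0.070 (adjusted p = 0.0381 with limma), while a second probe set was at 0.05. On the probe set used, Parp14 had deposited intensities of 90 to 116, near the array medians of 78.3 to 99.6. Parp9, which acts with a ubiquitin ligase in interferon signalling, was at -0.17 ± 0.072, and Bst2 (tetherin), which holds budding viruses at the membrane, at -0.18 ± 0.083. Rsad2 (viperin) was at 0.08 ± 0.064, Xaf1 at -0.11 ± 0.079 and Ifitm3, which blocks viral entry, at -0.02 ± 0.080, and none of these 5 passed. Ifi35 was left with -0.12 (adjusted p = 0.338) when probe sets that may match several transcripts were left out, and Parp14 had an adjusted p of 0.077 with the deposited scaling. Without the pair, Ifi35 was at -0.48 and -0.00290 without TGFBeta1 replicates 1 and 2 and at -0.46 and -0.03 without low glucose replicates 1 and 2, and Parp14 was at -0.11 without TGFBeta1 replicate 2.

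**Figure D2:**
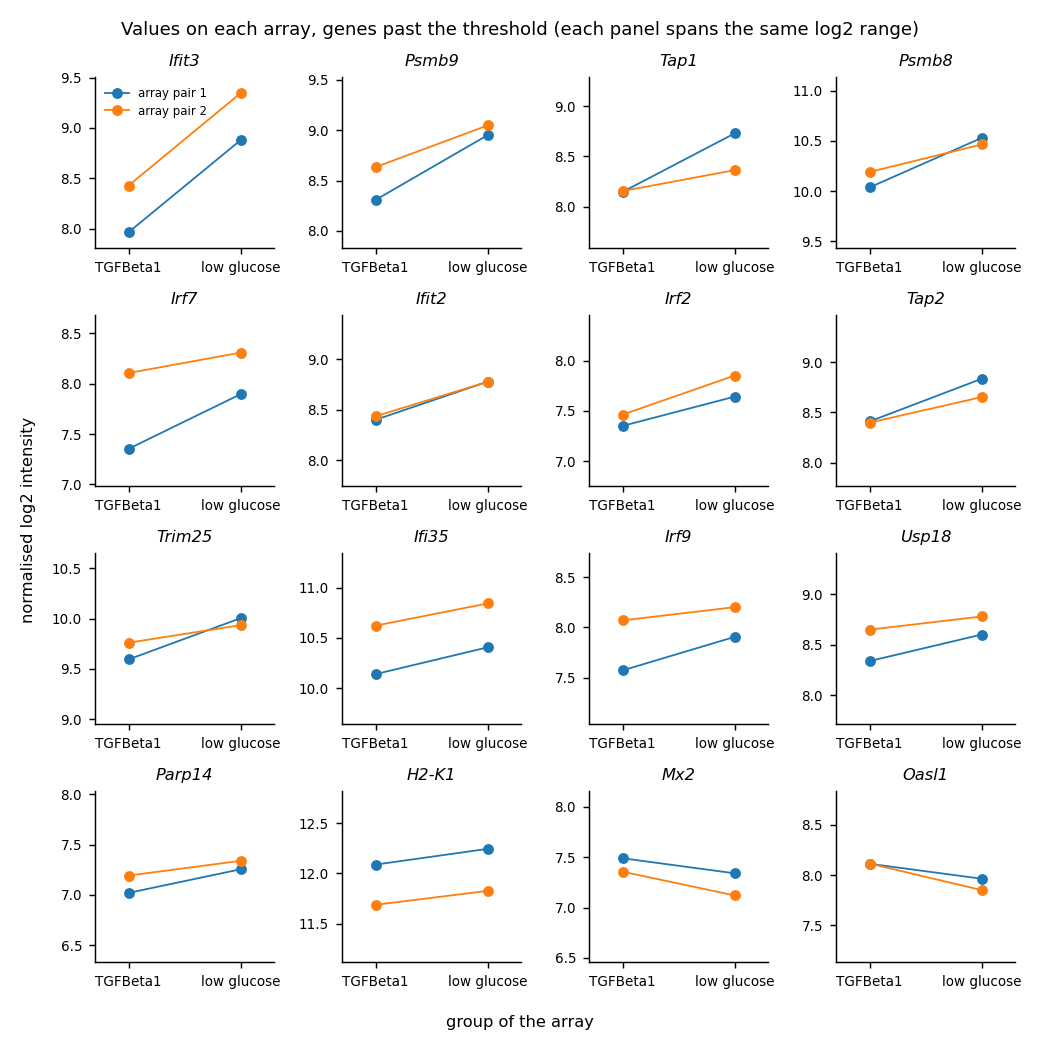
Normalised log2 intensity (y axis) on each array for the 16 genes past the threshold, TGFBeta1 at the left and low glucose at the right of each panel, with lines joining the arrays of a pair. All 14 genes that fell and the 2 that rose ran the same way in both pairs, and for Irf7, Irf9, Usp18, Ifi35 and H2-K1 the pairs lay so far apart that the groups overlapped.

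The immunoproteasome genes fell in part: Psmb9 and Psmb8 fell, and Psmb10 and the activator subunit Psme1 did not pass. Psmb9, a catalytic subunit that takes the place of Psmb6, had 8.63 and 8.31 in TGFBeta1 replicates 1 and 2, against 8.95 and 9.05 in low glucose replicates 1 and 2. It fell by 0.53 ± 0.075 (a ratio of 0.693; limma adjusted p = 9.04e-11), with -0.64 and -0.41 within the pairs and no overlap. Psmb8, which takes the place of Psmb5, had 10.19 and 10.04 in TGFBeta1 arrays and 10.53 and 10.46 in low glucose arrays. Here too the groups stood apart, and the fall was 0.38 ± 0.080 (adjusted p = 3.62e-05 with limma). Psmb10, which takes the place of Psmb7, was at -0.14 ± 0.082. Psme1, the brightest probe set of these 4 genes, had 11.43 and 11.34 in TGFBeta1 against 11.47 and 11.44 in low glucose, a small gap of -0.07 ± 0.065. All 4 genes had both TGFBeta1 arrays below both low glucose arrays. The constitutive subunits, from a list of other genes chosen by role, did not pass: Psmb6 was at 0.03 ± 0.058, Psmb5 at 0.09 ± 0.053 and Psmb7 at 0.05 ± 0.055. The difference between each immunoproteasome subunit and its constitutive counterpart was not tested.

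Both chains of the peptide transporter fell. Tap1 had 8.16 and 8.15 in TGFBeta1 and 8.73 and 8.36 in low glucose, a fall of 0.40 ± 0.069 (adjusted p = 3.12e-07 with limma; -0.58 and -0.21 within the pairs). Tap2 had 8.40 and 8.41 in TGFBeta1 arrays, against 8.83 and 8.65 in low glucose arrays, and fell by 0.34 ± 0.072 (limma adjusted p = 5.45e-05). In both genes the TGFBeta1 arrays were nearly equal and the low glucose arrays spread. Tapbp (tapasin), which bridges the transporter and class I molecules and was the brightest of the 3, had 10.81 and 10.84 in TGFBeta1 against 11.04 and 10.84 in low glucose and did not pass (-0.11 ± 0.073). A second probe set of Tap1 was at -0.19, and without the pair Tap1 was at -0.21 when low glucose replicate 1 was left out.

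In the GRCm38.p6 gene table, Psmb9, Tap1, Psmb8 and Tap2 follow each other on chromosome 17 as consecutive protein-coding genes, and all 4 fell. The annotated starts of Psmb9 and Tap1 lie 226 bases apart on opposite strands, so that 275 of the 300 bases of one promoter window belong to the other as well. Besides these, the listed genes that neighbour each other were Ifit2 with Ifit3, which both fell, and Oasl2 with Oasl1, which had opposite signs.

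Of the class I chains 1 of 3 fell, by a small amount. H2-K1, a class I heavy chain, had 11.69 and 12.09 in TGFBeta1 and 12.24 and 11.83 in low glucose and fell by 0.15 ± 0.056 (limma adjusted p = 0.0457; -0.16 and -0.14 within the pairs). The groups overlapped. It did not pass with the deposited scaling (adjusted p = 0.0723) or without a filter (0.106), and without the pair it was at 0.05 and -0.35 without TGFBeta1 replicates 1 and 2 and at 0.06 and -0.36 without low glucose replicates 1 and 2. B2m, the shared light chain and the brightest of the 3, had 12.25 and 12.64 in TGFBeta1 arrays against 12.76 and 12.35 in low glucose arrays, a difference of -0.11 ± 0.047 outside the threshold (adjusted p = 0.0728 with limma). H2-D1 was at -0.05 ± 0.066, with its 4 other probe sets above the limit on dim probe sets between -0.06 and 0.02, and 4 dimmer ones between -0.29 and 0.01. Class I heavy chain genes are similar in sequence, and the H2-K1 and H2-D1 probe sets used here are of a design that may match several of them. The values of these probe sets therefore cannot be assigned to 1 chain with certainty.

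The genes around this set were taken from 4 further lists of 161 genes chosen by role, of which 116 were tested. Over these 116 genes 21 fell (18.1%, against 10.6% of all tested genes), 3 rose (2.59%, against 7.88%) and 92 were not past the threshold, and the median of all was -0.04. Other interferon-induced genes made up most of the falls: 16 of 56 fell (28.6%), 2 rose (3.57%) and 38 were not past the threshold, and their median was -0.12. Samd9l, an interferon-induced antiviral gene, had 7.33 and 7.53 in TGFBeta1 replicates 1 and 2, against 8.09 and 7.89 in low glucose replicates 1 and 2, and fell by 0.56 ± 0.064 (-0.56 and -0.56 within the pairs). Ifit1bl1 fell by 0.44 ± 0.074, Trim14 by 0.40 ± 0.071, Tdrd7 by 0.40 ± 0.075, the GTPase genes Gbp7 by 0.40 ± 0.066 and Igtp by 0.39 ± 0.079, Trim30a by 0.32 ± 0.064 and Rtp4 by 0.31 ± 0.067. Ifit1bl1 and Trim14 were dim, with deposited intensities of 55 to 105 and 72 to 122 beside array medians of 78.3 to 99.6. The groups overlapped for Tdrd7, Igtp and Rtp4. Unpaired, with TGFBeta1 replicates 1 and 2 left out in turn, Tdrd7 was at -0.82 and 0.0190, Igtp at -0.72 and -0.06, and Rtp4 at -0.78 and 0.16. With low glucose replicates 1 and 2 left out in turn, Tdrd7 was at -0.76 and -0.0475, Igtp at -0.67 and -0.11, and Rtp4 at -0.79 and 0.18. Trim14 was at -0.25 with either TGFBeta1 replicate 2 or low glucose replicate 2 left out, and Gbp7 was at -0.25 without low glucose replicate 2. Trim30a was at -0.21 without TGFBeta1 replicate 2, at -0.50 without low glucose replicate 1 and at -0.14 without low glucose replicate 2. The chemokine gene Cxcl10, which draws T cells and is induced by interferon and by NF-kB, ran the other way. It had 9.76 and 9.31 in TGFBeta1 arrays, against 8.62 and 9.25 in low glucose arrays, and rose by 0.60 ± 0.081 (0.69 and 0.51 within the pairs). Unpaired, Cxcl10 was at 0.38 without TGFBeta1 replicate 1, at 0.28 without low glucose replicate 1 and at 0.92 without low glucose replicate 2.

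Among receptors, kinases, regulators and ligands 1 of 19 fell (5.26%, against 10.6% of all tested genes) and 1 rose (5.26%, against 7.88%), and 17 did not pass. Irf8, a factor best known in myeloid cells, fell by 0.32 ± 0.065, and Irf2bp2, a co-repressor that binds Irf2, rose by 0.44 ± 0.082. Unpaired, Irf8 was at -0.49 and -0.14 without TGFBeta1 replicates 1 and 2, and Irf2bp2 was at 0.28 without TGFBeta1 replicate 2 and at 0.27 without low glucose replicate 2. The receptor chains Ifnar1 (0.05 ± 0.078), Ifnar2 (-0.01 ± 0.081), Ifngr1 (-0.18 ± 0.078) and Ifngr2 (0.17 ± 0.080) did not pass. Neither did the kinases Jak1 (0.08 ± 0.082), Jak2 (-0.12 ± 0.067) and Tyk2 (-0.09 ± 0.064), nor the feedback inhibitors Socs1 (0.11 ± 0.072) and Socs3 (0.14 ± 0.078). The interferon genes Ifnb1, Ifna1 and Ifng were below the limit on dim probe sets. Of 17 sensors and adaptors 2 fell (11.8%, close to the 10.6% of all tested genes) and 0 rose. Other antigen presentation genes had 2 of 24 that fell (8.33%, below the 10.6% of all tested genes) and 0 that rose, with a median of -0.01: H2-Ab1, a class II chain, fell by 0.36 ± 0.077, Hfe fell as well, and Nlrc5, a class I transactivator counted here among the sensors, was at -0.12 ± 0.074. H2-Ab1 overlapped between the groups, and unpaired it was at -0.60 and -0.11 without TGFBeta1 replicates 1 and 2 and at -0.54 and -0.17 without low glucose replicates 1 and 2.

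**Figure D3:**
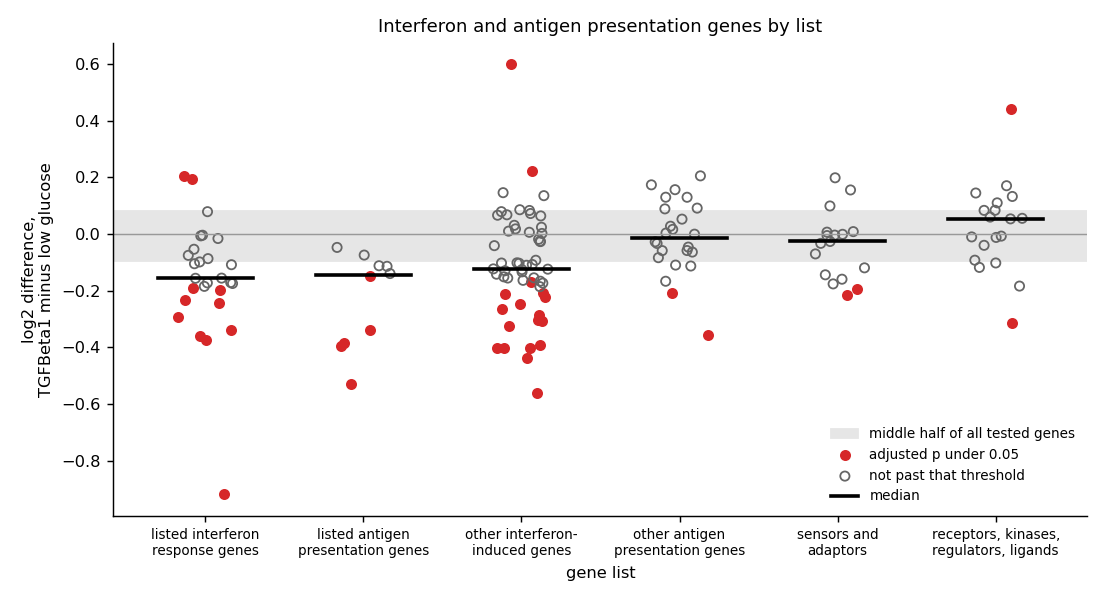
Log2 difference (TGFBeta1 minus low glucose, y axis) of each tested gene in 6 lists, with red points past an adjusted p of 0.05, open points not past it, and a bar at each list's median. The grey band spans the quartiles of all tested genes, -0.09 to 0.08. The medians of the 27 listed interferon response genes (-0.16), the 10 listed antigen presentation genes (-0.14) and the 56 other interferon-induced genes (-0.12) are drawn beside it. The band shows single genes and is no measure of the spread of a median.

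The treatment and the cell type were checked on the same arrays. Pmepa1, a TGF-beta target, had 10.58 and 10.27 in TGFBeta1 against 9.001 and 9.28 in low glucose, and Tgfb1 was at 0.04 ± 0.078. Of 10 mesangial markers 8 were above the limit on dim probe sets, but among the defining ones Pdgfrb had deposited intensities of 87 to 118 and Itga8 of 65 to 76, near the array medians of 78.3 to 99.6, and Gata3 and Thy1 were below the limit. Acta2, Tagln and Vim rose, and the summed intensity of the list was 6490 to 7473 in TGFBeta1, against 5208 to 6068 in low glucose. Vim, which many cell types express, made up 81.6% to 84.1% of that sum. Tubule markers were above the limit for 6 of 8 genes, and 3 of these 6 fell (Aqp1, Cdh16 and Lrp2). Pax8, Umod and Epcam did not pass. Aqp1 had deposited intensities of 1120 to 2301 and Cdh16 of 1495 to 2014, far above those of Pdgfrb and Itga8. The summed deposited intensity of the tubule list was 4119 to 4452 in TGFBeta1, against 5054 to 6111 in low glucose. Of 10 macrophage and leukocyte markers with a probe set 7 were above the limit, with a sum of 1552 to 1977 in TGFBeta1 and 1866 to 2334 in low glucose. Most of that sum was Csf1r, the only 1 of the 7 to pass, which fell by 0.38 ± 0.080. The other 6 did not pass and lay between -0.10 (Itgam) and 0.14 (Cd68). Ptprc, present on all leukocytes, had 24 to 36 over the 4 arrays and was below the limit, as were C1qa and Siglech. The endothelial sum was 246 to 312 in TGFBeta1 and 257 to 301 in low glucose, with 1 of 6 genes above the limit. The podocyte sum was 545 to 778 in TGFBeta1 and 580 to 738 in low glucose, with Synpo falling and Podxl rising among 3 tested genes. In such bulk RNA, fewer cells of a type and less RNA per cell cannot be told apart, and the part of these cell types in the falls was not tested.

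**Figure D4:**
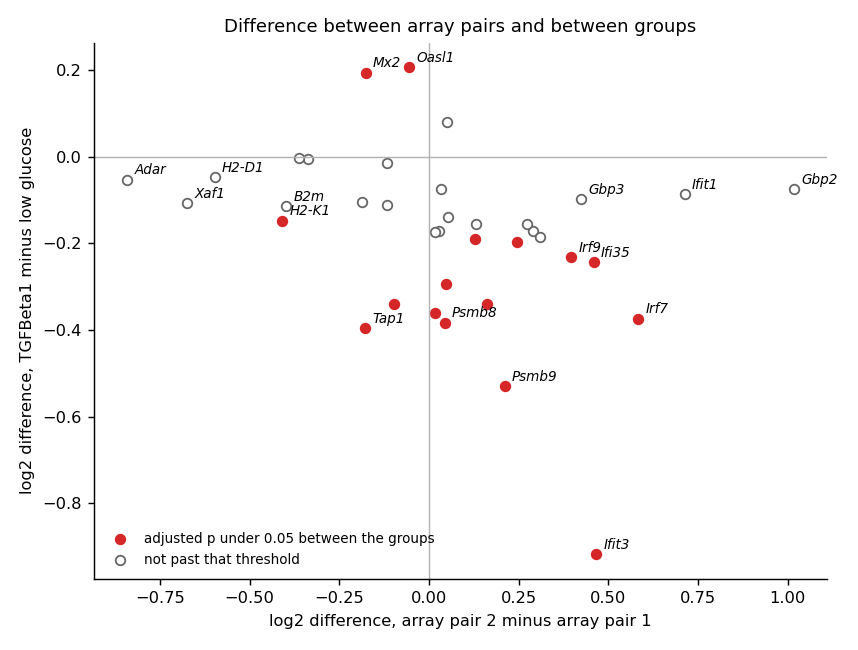
Log2 difference between the array pairs (pair 2 minus pair 1, x axis) and between the groups (TGFBeta1 minus low glucose, y axis) for the 37 tested genes, with red points past an adjusted p of 0.05 and open points not past it. Gbp2 lies at 1.02 and Adar at -0.84 on the x axis, each close to 0 on the y axis, while Ifit3 lies at -0.92 on the y axis.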

How the data were processed

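Per the labels, total RNA of mouse mesangial cells was measured on 4 arrays, 2 per group, grouped by their titles. The authors deposited 1 linear intensity per probe set and array, and the sources used here do not say how these were summarised and scaled. Array medians were 78.3 to 99.6, and no 2 arrays shared more than 1 identical value.

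Symbols were read from the platform's annotation table: 34945 of 45037 probe sets without controls had 1 symbol, 932 several and 9160 none. The intensities were turned into log2(intensity + 46.9), the 25th percentile being the pseudocount, which understates changes of dim genes, and were quantile normalised. The dimmest 40% of probe sets by mean log2 value were dropped (27022 were left), and the one of highest mean taken per gene. Limma 3.58.1 (R 4.3.3; lmFit and eBayes with trend, two-sided) was fitted over 13565 genes with the array pair as a block. By deposited mean, 36 of the 37 tested genes kept their probe set. The method was tested on simulated arrays with the pair differences of the data and the same noise for every gene. The fit with the block assumes much the same, so the simulation cannot check that assumption. Figures used matplotlib 3.10.9.

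The array pairs came from 18 spike-in probe sets: absolute log2 differences averaged 0.0449 and 0.0847 inside a pair, against 0.855 and 0.949 between arrays of different group and pair. Across genes, arrays correlated at 0.988 and 0.99 within pairs and 0.955 within each group. Titles give 1 array of each group, those of pair 1, the same repeat tag. In the other pair the titles share no tag: the TGFBeta1 array has none and the low glucose array has a different one. The block does not alter a difference, and lowers its median standard error to 0.072, against 0.183 without it. P-values cover no more than the array-to-array spread, possibly technical, and 4 arrays limit the precision.

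The members, lists, block and tests were chosen with earlier results of these data known. Every gene past the threshold and the brightest of each role is given by array, and of other genes the 12 largest called differences and a fixed set. Hfe, and genes given without values, were named outside that rule. Alternatives were no block, another prior, other pseudocounts, scalings, filters and probe sets, and leaving out each array. Sequences are from RefSeq.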

Additional observations from a re-analysis of the deposited data

How the results depend on the processing

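Counts of both directions together stayed within 1.5 times of those reported under both other pseudocounts, the deposited scaling, median centring, no filter, the filter at the 60th percentile and the probe set of highest deposited mean (added after seeing the data): 2351 to 2626 of all genes, 14 to 21 of the listed genes, 20 to 29 of the other genes, and 15 to 17 genes without overlap between groups where that was recomputed. By direction, the deposited scaling gave 7 other genes that rose in place of 3 and 1 listed gene with both TGFBeta1 arrays above in place of 3, and with the filter at the 60th percentile 1 listed gene rose in place of 2. The 21 came with median centring, where B2m, Oasl2, Ifih1, Bst2 and Parp9 also passed. Without probe sets that may match several transcripts, 8 of the 25 genes that remained testable passed. Without the replicate block, and with the replicate block but the prior of the fit without it (2.80 degrees of freedom, in place of an infinite one), 0 of all genes, 0 listed genes and 0 other genes passed with limma, and unadjusted p under 0.05 was found for 270 genes without the block. Leaving out 1 array without the block called 0, 2, 9 and 9 of all genes, 0 listed and 0 other genes, with an unadjusted p under 0.05 for 0 to 2 listed genes. The lone array of a group is then assumed to vary like the other group. Leaving out 1 array with the block leaves the difference within the complete pair, given above, with no test; no gene past the threshold changed sign in this way. With the deposited scaling Eif2ak2 was at 0.0100.

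Leaving out 1 array without the block unbalances the pairs between the groups, and 16 differences then changed sign in at least 1 of the 4 fits. Without TGFBeta1 replicate 1, Irf3 was at 0.11, B2m at 0.0803, H2-D1 at 0.23, H2-K1 at 0.0521, Xaf1 at 0.30, Eif2ak2 at 0.13, Adar at 0.40 and Ifitm3 at 0.0377. Without TGFBeta1 replicate 2, Ifit1 was at 0.31, Irf7 at 0.00299, Irf9 at 0.0161, Oasl2 at 0.0244, Gbp2 at 0.42, Gbp3 at 0.0735 and Bst2 at 0.0051. Without low glucose replicate 1, Irf1 was at 0.00253, Irf3 at 0.21, B2m at 0.0893, H2-D1 at 0.27, H2-K1 at 0.0609, Xaf1 at 0.16, Eif2ak2 at 0.22, Adar at 0.33 and Ifitm3 at 0.0492. Without low glucose replicate 2, Ifit1 was at 0.23, Gbp2 at 0.45 and Gbp3 at 0.15. The lowest values of the same genes over these fits were -0.51 for Adar, -0.32 for B2m, -0.37 for Bst2, -0.23 for Eif2ak2, -0.60 for Gbp2, -0.35 for Gbp3, -0.37 for H2-D1, -0.36 for H2-K1, -0.48 for Ifit1, -0.08 for Ifitm3, -0.21 for Irf1, -0.22 for Irf3, -0.75 for Irf7, -0.48 for Irf9, -0.37 for Oasl2 and -0.51 for Xaf1. For changes other than those the design of an alternative makes, the cause was not tested. No detection calls were used, so how far dim probe sets lie above background is unknown.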

Other observations

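The listed genes varied more between the 2 array pairs than between TGFBeta1 and low glucose for 20 of the 37 tested genes (54.1%, against 76.2% of all tested genes). A larger difference between the pairs makes the groups overlap. These are therefore the same 20 genes whose groups overlapped, and the count is no separate result. The difference between pairs, pair 2 minus pair 1, was 1.02 for Gbp2, 0.71 for Ifit1, 0.58 for Irf7 and 0.47 for Ifit3 on the log2 scale. It ran the other way for Adar (-0.84), Xaf1 (-0.67), H2-D1 (-0.60), H2-K1 (-0.41) and B2m (-0.40). Both pairs hold 1 array of each group. Ifit2, the gene next to Ifit3, differed by 0.02 between the pairs. The sources used here do not say what distinguishes the pairs.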
